A study of Mus musculus with 8 samples.

Results

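The acute phase proteins that rise in blood during inflammation were followed as a set of 10 mouse genes: Saa1, Saa2, Saa3, Orm1, Orm2, Hp, Hpx, Crp, Apcs and Lcn2. They were taken by gene name from the array files, updated through the accession of each probe, and they stand among 49826 names on one array design and 34761 on the other. Every one had a probe on both designs, and 5 of them (Saa1, Orm1, Orm2, Hpx and Apcs) had a probe of identical sequence on both. The rule that picks them uses gene names and no measured value.

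The acute phase response is the change in the proteins that the liver secretes after infection or tissue injury. Interleukin-6, interleukin-1 and related cytokines reach hepatocytes through their receptors, and STAT3, NF-kB and C/EBP factors then act on the genes of the secreted proteins. Serum amyloid A (the Saa genes), the orosomucoids (Orm1 and Orm2) and haptoglobin (Hp) are known as strongly induced in mouse liver, and serum amyloid P (Apcs) is known as the main acute phase pentraxin of the mouse, whereas C-reactive protein (Crp) changes little in this species. Neutrophils and their precursors also make several of these proteins, above all lipocalin 2 (Lcn2), which is stored in their granules.

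Gene expression was measured on 8 one-colour Agilent arrays in 4 groups of 2. Lin- BMCs (arrays L3 and L4) were bone marrow cells left after magnetic depletion of lineage-positive cells, with CD11b and Gr-1 among the antibodies of the depletion. By the methods, donors were female eGFP mice of the strain C57Bl6/J-Tg(UBCGFP)30Scha/J at an age of 6 to 8 weeks, in which the ubiquitin C promoter drives eGFP in most cell types. The cells were given by tail vein to male hemophilia A mice of the same age, which carry the F8tm1Kaz allele and lack working factor VIII, and whose liver had been injured with acetaminophen. BM derived (BMD) hepatocytes came from these recipients. Those of 1 month were hybridised to B1 and B2, and those taken after 5 months to G1 and G3. They were isolated by collagenase perfusion, a slow spin and sorting on eGFP. Primary hepatocytes (H2 and H4) were the reference cells, and the strain, sex and age of their source are not given in the sources used here. By the figure legend, each experiment used pooled cells of 3 mice, so the spread between 2 arrays is a spread between pools. The sorted populations are limited as a model because some donor-derived cells carried chromosomes of the host, which the study took as cell fusion. In bulk RNA, fewer cells of a type and less RNA per cell cannot be told apart.

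Lin- BMCs and 1 month shared one slide and design, while primary hepatocytes and 5 months shared the other. Comparisons across slides therefore cannot be told apart from a difference between slides or designs, or from anything else that differed with them. Between 47.7% and 58.6% of the spots were well above background on each array, and 0 spots were saturated. The upper quartile of the signal was lowest at 1 month, at 75.5 (B1) and 89.5 (B2). The labelled cell types were checked against marker lists. All 10 hepatocyte genes (Hnf4a, Cps1, Tat and others) were well above background on each of the 6 hepatocyte arrays, against 5 and 6 of 10 on the Lin- BMC arrays. Their summed level, in units of the 75th percentile of the array, was 0.644 to 0.754 in Lin- BMCs and 2064 to 2087 at 1 month, and 3677 to 4917 on the other slide. Such sums are read through different probes on the 2 slides and cannot be set against each other across them. The 8 leukocyte genes (Ptprc, Coro1a and others) had a summed level of 236 to 383 in Lin- BMCs and 9.97 to 12.5 at 1 month. On the other slide it was 7.91 to 12.2 in primary hepatocytes and 36.3 to 42.0 at 5 months. That sum was mostly Lcp1, with a log2 level of 2.33 (H2), 2.78 (H4), 5.09 (G1) and 4.92 (G3). The median log2 level of the 8 genes was -1.91 (H2), -0.72 (H4), -0.23 (G1) and -0.74 (G3). Of these genes, 6 and 7 were still well above background on B1 and B2, and all 8 on each array of the other slide.

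Several of these genes are neighbours. On GRCm38.p6, Saa3 (chromosome 7, 46711998 to 46719615), Saa1 (46740497 to 46743181) and Saa2 (46751833 to 46754313) lie within 42.3 kb. Orm1 (chromosome 4, 63344556 to 63348163) and Orm2 (63362449 to 63365877) lie within 21.3 kb, with Orm3 between them. Crp (chromosome 1, 172698056 to 172699966) and Apcs (172893961 to 172895054) lie within 197.0 kb. Hpx is on chromosome 7 (105591611 to 105600116), Hp on chromosome 8 (109575128 to 109579172) and Lcn2 on chromosome 2 (32384637 to 32387739). RefSeq lists Saa1 and Saa2 as former names of each other, and each probe was followed here by its accession.

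Each array reads a gene through a DNA oligonucleotide of 60 bases. The 5 probes present on both designs are shown because every comparison across slides rests on them. The Saa1 probe ends across the stop codon, TGA in capitals, and the Apcs probe starts at the start codon, ATG in capitals.
Saa1, both designs: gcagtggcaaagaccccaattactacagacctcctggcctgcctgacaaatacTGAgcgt
Orm1, both designs: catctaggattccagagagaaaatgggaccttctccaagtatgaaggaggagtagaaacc
Orm2, both designs: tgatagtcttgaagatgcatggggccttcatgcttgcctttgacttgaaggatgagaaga
Hpx, both designs: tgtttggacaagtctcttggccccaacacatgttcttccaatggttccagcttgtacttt
Apcs, both designs: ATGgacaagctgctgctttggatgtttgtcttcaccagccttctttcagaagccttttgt
A second Saa1 probe, on the slide of Lin- BMCs and 1 month only, is shown because it gave another reading in Lin- BMCs than the first.
Saa1, second probe: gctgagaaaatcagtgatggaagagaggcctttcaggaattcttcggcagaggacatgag
Among the 16 distinct probe sequences of the 10 genes, the longest run that any 2 shared was 9 bases over 120 pairs. Whether a probe also binds the RNA of a related gene, such as that of Saa2 for the Saa1 probes or Orm3 for those of Orm1 and Orm2, was not tested, so the split within these families is uncertain.

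The 250 bases before the transcript start that RefSeq uses for a gene (in Saa1 and Saa3 this lies inside the widest annotated span) were available on GRCm38.p6 for 8 of the 10 genes, without Hp and Orm1. The letters TTGCNNAA, a form of the C/EBP motif searched on both strands, were found in 6 of the 8 (Saa1, Saa2, Saa3, Orm2, Hpx and Lcn2), against 9.56% of 32851 such windows. TTCNNNGAA, a STAT motif, was found in Apcs alone of the 8 and in 7.02% of all windows, and an NF-kB motif of 10 bases in 0 of 8 and 1.41% of all. The windows of Saa1 (chr7:46742981-46743230, minus strand) and Saa2 (chr7:46751583-46751832, plus strand) are shown because both genes moved together between arrays, and that of Lcn2 (chr2:32387740-32387989, minus strand) because Lcn2 did so on the slide of primary hepatocytes. Capitals mark TTGCNNAA.
Saa1 window: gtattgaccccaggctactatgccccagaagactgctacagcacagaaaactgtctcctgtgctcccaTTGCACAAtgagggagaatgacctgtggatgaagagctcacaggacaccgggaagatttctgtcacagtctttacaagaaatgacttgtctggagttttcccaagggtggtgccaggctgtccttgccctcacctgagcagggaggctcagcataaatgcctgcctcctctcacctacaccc
Saa2 window: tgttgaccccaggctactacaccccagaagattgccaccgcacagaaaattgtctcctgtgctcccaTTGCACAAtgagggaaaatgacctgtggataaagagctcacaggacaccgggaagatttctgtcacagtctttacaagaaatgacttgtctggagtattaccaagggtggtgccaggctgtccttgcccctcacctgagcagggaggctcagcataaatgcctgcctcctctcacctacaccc
Lcn2 window: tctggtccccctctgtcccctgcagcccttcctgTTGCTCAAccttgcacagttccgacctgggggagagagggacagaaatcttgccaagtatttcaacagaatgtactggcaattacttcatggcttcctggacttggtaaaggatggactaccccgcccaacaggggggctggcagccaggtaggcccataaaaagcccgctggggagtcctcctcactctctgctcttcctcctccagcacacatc
The Saa1 and Saa2 windows were identical at 238 positions, differed at 11 and had 2 gaps (94.8% identical), whereas that of Saa3 was 52.2% identical to Saa1. The motif began 182 bases before the start in Saa1, 183 in Saa2 and 216 in Lcn2. Such matches describe the letters only.

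Levels are given as log2 of the background-subtracted signal minus the 75th percentile of the array, so a level of 0 is that percentile and a step of 1 is a doubling. Levels of different probes cannot be set against each other. A gene was called when the adjusted p from limma was under 0.05 and the log2 difference was beyond 0.6. With 2 arrays a group an exact two-sided permutation test cannot go below 0.33. Within the slide of Lin- BMCs, 9 of the 10 genes were called higher at 1 month and 0 lower, where 28.8% of 28535 genes were called higher and 26.5% lower. This count is no support by itself, since 6 of the 9 were tested only through their signal at 1 month. Of these, Saa2, Saa3, Orm1, Crp and Apcs were not well above background on either Lin- BMC array, and Orm2 was so on L3 only. Saa1, Hp and Hpx, measurable in Lin- BMCs too, were all called. Within the other slide, 0 of the 10 genes were called between 5 months and primary hepatocytes by limma, where 0.552% of 19933 genes were called in either direction. An unadjusted p under 0.05 was found for 4 (Saa3, Orm1, Orm2 and Apcs), and the methods' t-test gave 1 of 10 unadjusted and 0 adjusted. The share of all genes under the unadjusted limit is not given here, and the 0.552% counts adjusted limma calls only. The median log2 difference of the 10 genes was 0.92, against 0.04 for all genes tested.

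**Figure D1:**
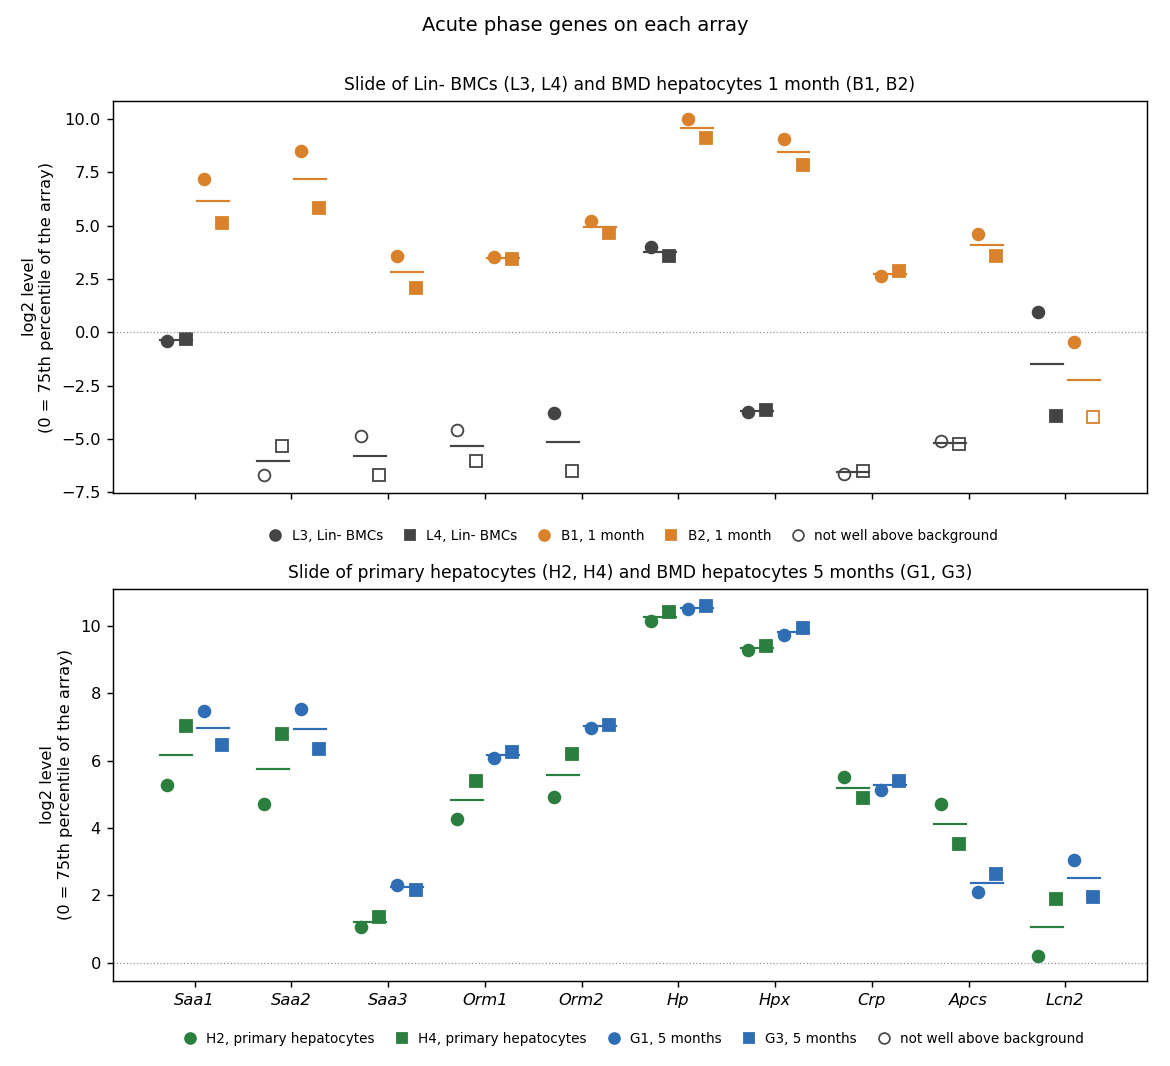
Level of the 10 genes on each array (y axis, log2, 0 is the 75th percentile of the array), with the slide of Lin- BMCs and 1 month above and the slide of primary hepatocytes and 5 months below. Circles and squares are the 2 arrays of a group, horizontal lines are the means of 2 arrays, and open points were not well above background. At 1 month 9 genes lie far above Lin- BMCs while Lcn2 overlaps, and on the lower slide the Saa genes of primary hepatocytes are spread over 1.77 (Saa1) and 2.08 (Saa2).

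Saa1, one of the 2 main serum amyloid A proteins of mouse plasma, read -0.41 (L3) and -0.29 (L4) in Lin- BMCs and 7.20 (B1) and 5.14 (B2) at 1 month. The groups lay far apart, and B1 was 4.16-fold above B2. The mean went from -0.35 ± 0.08 to 6.17 ± 1.45 (SD, n = 2), a rise of 6.52 on the log2 scale (92.0-fold, SE 0.70, adjusted p = 2.18e-03). By its second probe, neither Lin- BMC array was well above background (-6.69 and -6.54), and B1 and B2 read 6.16 and 3.98. That probe gave a rise of at least 721-fold. A fold change with a group that is not well above background is a lower bound, taken from the lowest signals well above background on its arrays. An adjusted p printed beside such a bound is from limma on the readings themselves, background readings included, and does not test the bound. The size of the Saa1 rise thus depended on the probe, by the Lin- BMC reading, and with the mean of both probes it was 9.10 and with normexp 5.67, while both probes put B1 above B2.

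Saa2, the other main plasma form, was not well above background in Lin- BMCs (-6.70 and -5.34) and read 8.51 (B1) and 5.84 (B2) at 1 month, at least 3102-fold higher (adjusted p = 8.23e-04). B1 exceeded B2 by 6.35-fold, the widest gap of the 9 called genes. Saa3, a form that macrophages and other cells outside the liver also make, read -4.88 and -6.69 in Lin- BMCs, both not well above background, and 3.56 (B1) and 2.10 (B2) at 1 month. It was at least 152-fold higher (adjusted p = 1.39e-03). All 3 Saa genes were thus higher on B1 than on B2. Without B1 the rise of Saa1 was 5.49 and without B2 7.55 on the log2 scale, and for Saa2 these values were 11.86 and 14.53. All stayed called. After adjustment, the methods' t-test called none of the 3 Saa genes, nor Orm2.

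On the other slide Saa1 read 5.27 (H2) and 7.04 (H4) in primary hepatocytes and 7.49 (G1) and 6.48 (G3) at 5 months. The groups overlapped, with H4 between both 5-month arrays. The difference of 0.83 (SE 0.72, 95% confidence interval -1.09 to 2.75, adjusted p = 0.661) lay within the spread between arrays, and without H2 it was -0.06. Saa2 read 4.72 (H2), 6.80 (H4), 7.53 (G1) and 6.35 (G3), in the same order of arrays as Saa1, with a difference of 1.18 (95% confidence interval -1.04 to 3.40, adjusted p = 0.587). Saa3 read 1.07 (H2), 1.36 (H4), 2.32 (G1) and 2.16 (G3). Both 5-month arrays lay above both primary hepatocyte arrays, by 1.02 (2.03-fold, SE 0.22, 95% confidence interval 0.42 to 1.63), but after adjustment over all genes this was not called (adjusted p = 0.189).

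The orosomucoids bind small lipophilic molecules in plasma. Orm1 was not well above background in Lin- BMCs (-4.57 and -6.06) and read 3.54 (B1) and 3.43 (B2) at 1 month, at least 240-fold higher (adjusted p = 4.77e-04). Orm2 read -3.78 on L3, where it was well above background, -6.53 on L4, where it was not, and 5.22 (B1) and 4.63 (B2) at 1 month. Its rise was 10.08 on the log2 scale (SE 0.93, adjusted p = 1.44e-03), but its size rests on 1 measured Lin- BMC array. It was 8.70 with that array alone, 11.45 without it and 5.95 with normexp background correction. Unlike the Saa genes, Orm1 differed by only 0.10 between B1 and B2, and Orm2 by 0.58.

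On the slide of primary hepatocytes, Orm1 read 4.28 (H2), 5.40 (H4), 6.08 (G1) and 6.27 (G3). Orm2 read 4.92 (H2), 6.21 (H4), 6.98 (G1) and 7.07 (G3). For both, the 5-month arrays were close to each other and above both primary hepatocyte arrays, and H2 was the lowest. The difference was 1.34 for Orm1 (95% confidence interval 0.19 to 2.49, adjusted p = 0.306) and 1.46 for Orm2 (0.18 to 2.74, adjusted p = 0.313), neither of them called. Without H4 these differences were 1.90 and 2.10 and both were called, along with 6.19% of all genes.

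Haptoglobin binds free hemoglobin and hemopexin binds free heme. Hp read 4.0 (L3) and 3.57 (L4) in Lin- BMCs, well above background on both, and 10.01 (B1) and 9.13 (B2) at 1 month. It rose by 5.78 on the log2 scale (55.1-fold, SE 0.40, adjusted p = 6.79e-04), from a mean of 3.78 ± 0.31 to 9.57 ± 0.62 (SD, n = 2). Hpx read -3.74 and -3.63 in Lin- BMCs, close to background but well above it, and 9.06 (B1) and 7.86 (B2) at 1 month, a rise of 12.14 (4524-fold, SE 0.46, adjusted p = 1.43e-04). The size depended on the handling of background, and with normexp it was 9.49. On the slide of primary hepatocytes Hp read 10.13 (H2), 10.42 (H4), 10.50 (G1) and 10.58 (G3), and Hpx 9.28 (H2), 9.39 (H4), 9.72 (G1) and 9.94 (G3). The 5-month arrays lay slightly above both others for each gene. The differences were 0.26 (95% confidence interval -0.32 to 0.85, adjusted p = 0.645) for Hp and 0.49 (-0.08 to 1.06, adjusted p = 0.403) for Hpx.

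The pentraxins Crp and Apcs are ring-shaped plasma proteins that bind phospholipids and amyloid. Crp was not well above background in Lin- BMCs (-6.63 and -6.49) and read 2.62 (B1) and 2.88 (B2) at 1 month, at least 145-fold higher (adjusted p = 7.32e-05). On the other slide it read 5.50 (H2), 4.89 (H4), 5.13 (G1) and 5.40 (G3). The 5-month arrays lay between both primary hepatocyte arrays, and the difference was 0.07 (95% confidence interval -0.73 to 0.87, adjusted p = 0.943). Apcs was not well above background in Lin- BMCs either (-5.11 and -5.24) and read 4.62 (B1) and 3.59 (B2) at 1 month, at least 370-fold higher (adjusted p = 2.23e-04). On the other slide Apcs read 4.73 (H2), 3.53 (H4), 2.09 (G1) and 2.63 (G3). It was the one gene of the 10 with lower values at 5 months than on either primary hepatocyte array, by -1.77 (SE 0.48, 95% confidence interval -3.07 to -0.48, adjusted p = 0.258). It was not called, and without H4 it was called at -2.37.

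**Figure D2:**
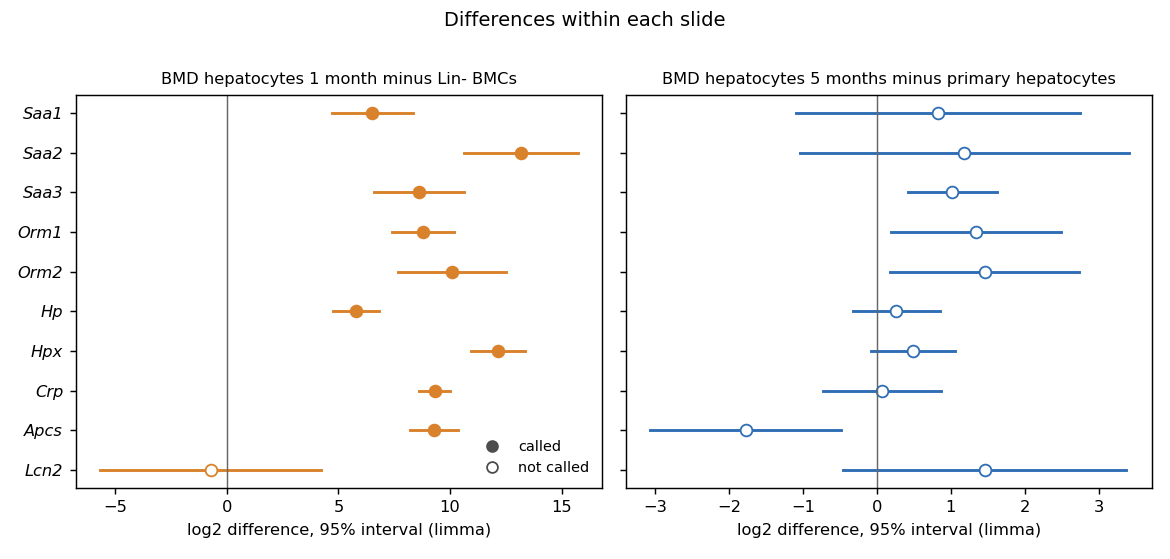
Log2 differences of the 10 genes within each slide (x axis) with 95% confidence intervals from limma, for 1 month minus Lin- BMCs on the left and 5 months minus primary hepatocytes on the right. Filled points were called. On the left 9 intervals lie above 0 and that of Lcn2 spans it, although the Lin- BMC level of 5 genes is only a background reading, and on the right no gene was called and that of Apcs alone lies below 0.

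Lipocalin 2 binds the siderophores with which bacteria take up iron. Lcn2 read 0.93 (L3) and -3.90 (L4) in Lin- BMCs, both well above background, and -0.47 (B1) and -3.97 (B2) at 1 month, where B2 was not well above background. L3 exceeded L4 by 28.5-fold, a larger gap than in 99.9% of the 26798 genes well above background on both. The groups overlapped, and the difference of -0.73 (95% confidence interval -5.69 to 4.23, adjusted p = 0.762) had no settled direction. It was 1.68 without L3, 1.02 without B2, -2.48 without B1 and -3.15 without L4. Lcn2 was thus the only one of the 10 genes not called between 1 month and Lin- BMCs.

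The 12 genes of the neutrophil granule list were set beside Lcn2 on L3 and L4. All 12 were well above background on both arrays and all 12 were higher on L3, by a median of 2.86 on the log2 scale. Of them, 7 differed by more than 1, against 12.3% of 26798 genes. Also higher on L3 were all 8 leukocyte genes (median 0.61) and 16 of 20 acute phase receptor and signalling genes (median 0.70). Higher on L4 were 5 of 7 Kupffer cell genes measured on both arrays (median -0.86 for L3 minus L4). The same held for 5 of 7 sinusoidal endothelial and stellate genes (median -0.44). The median over all genes was 0.03, and the share of all genes higher on L3 is not given here. The gap was wide for genes of late granules, at 4.19 for Ltf, 4.10 for Mmp8 and 3.76 for Ngp. It was narrow for Mpo (0.10), Prtn3 (0.46) and Ctsg (0.50), which are made early in the neutrophil line (these genes were chosen after their values were seen). For the rest of the list it was 3.69 (Mmp9), 3.64 (S100a8), 3.41 (Camp), 2.30 (S100a9), 0.80 (Cebpe) and 0.60 (Elane). The summed level of the granule list was 1196 on L3 and 599 on L4, and 27.2 and 25.3 on B1 and B2, where 6 and 7 of the 12 were well above background. On B1 and B2 this sum was mostly Cebpe, at 4.59 and 4.51. At 1 month 11 of the 12 were called lower than in Lin- BMCs, Mpo by -10.34, Ctsg by -8.30 and S100a9 by -7.49, and Cebpe was called higher by 1.17. The part of neutrophil precursors in the Lcn2 reading was not tested.

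**Figure D3:**
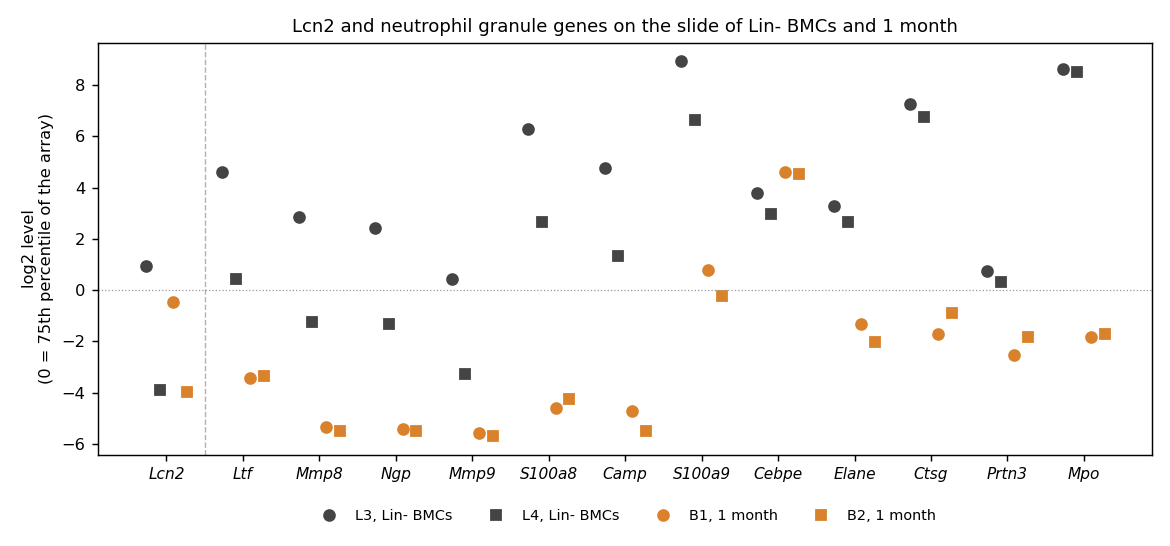
Levels of Lcn2 and the 12 neutrophil granule genes on the slide of Lin- BMCs and 1 month (y axis, log2, 0 is the 75th percentile of the array), with genes right of the dashed line ordered by the gap between L3 and L4. Circles and squares are the 2 arrays of a group, and detection is not marked. Lcn2 is higher on L3 than on L4 by 4.83, next to Ltf at 4.19, while Mpo hardly differs between them.

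On the slide of primary hepatocytes Lcn2 read 0.19 (H2), 1.90 (H4), 3.06 (G1) and 1.95 (G3), all well above background. The 5-month arrays lay above both primary hepatocyte arrays, but G3 exceeded H4 only slightly. The difference of 1.46 (2.75-fold, SE 0.71, 95% confidence interval -0.46 to 3.38, adjusted p = 0.456) was not called. Other cell types differed between these arrays as well. G1, the array with the highest Lcn2, had 11 of the 12 granule genes well above background and a summed level of 113, against 5 to 7 genes and 38.6 to 50.2 on the other arrays of the slide. On those other arrays the sum was mostly Cebpe (4.95 on H2, 4.66 on H4 and 4.51 on G3) and Elane (3.03, 4.37 and 3.56). On G1 Cebpe read 4.94 and Elane 3.42. S100a9 read 5.66 on G1 and 0.15 on G3. All 11 Kupffer cell genes were well above background on each array, with a summed level of 36.9 (H2), 78.5 (H4), 138 (G1) and 136 (G3). H2 was also lowest for Lcn2, Saa1, Saa2, Saa3, Orm1, Orm2, Hp and Hpx, but highest for Crp (5.50) and Apcs (4.73). The summed level of the hepatocyte genes was lowest on H2 as well, at 3677 (H2), 4917 (H4), 3802 (G1) and 4192 (G3). Whether neutrophils or Kupffer cells had a part in the levels of Lcn2 or the Saa genes was not tested.

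The 2 arrays of a group differed more for several of these genes than for most genes. At 1 month, 5 of the 9 genes well above background on both arrays differed by more than 1 on the log2 scale (Saa1, Saa2, Saa3, Hpx and Apcs), against 6.01% of 22821 genes, all with B1 higher. In primary hepatocytes 6 of 10 did so, against 13.3% of 19066 genes. Saa1, Saa2, Lcn2, Orm1 and Orm2 were higher on H4 by 1.77, 2.08, 1.71, 1.12 and 1.28, whereas Apcs was higher on H2 by 1.19. At 5 months 3 of 10 did so, Saa1, Saa2 and Lcn2 with G1 higher by 1.01, 1.18 and 1.11, against 2.62% of 19104 genes. Saa1 and Saa2 thus passed a gap of 1 in all 3 hepatocyte groups, and Hp and Crp in none of them. With 2 arrays a group these are descriptions of single pools.

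**Figure D4:**
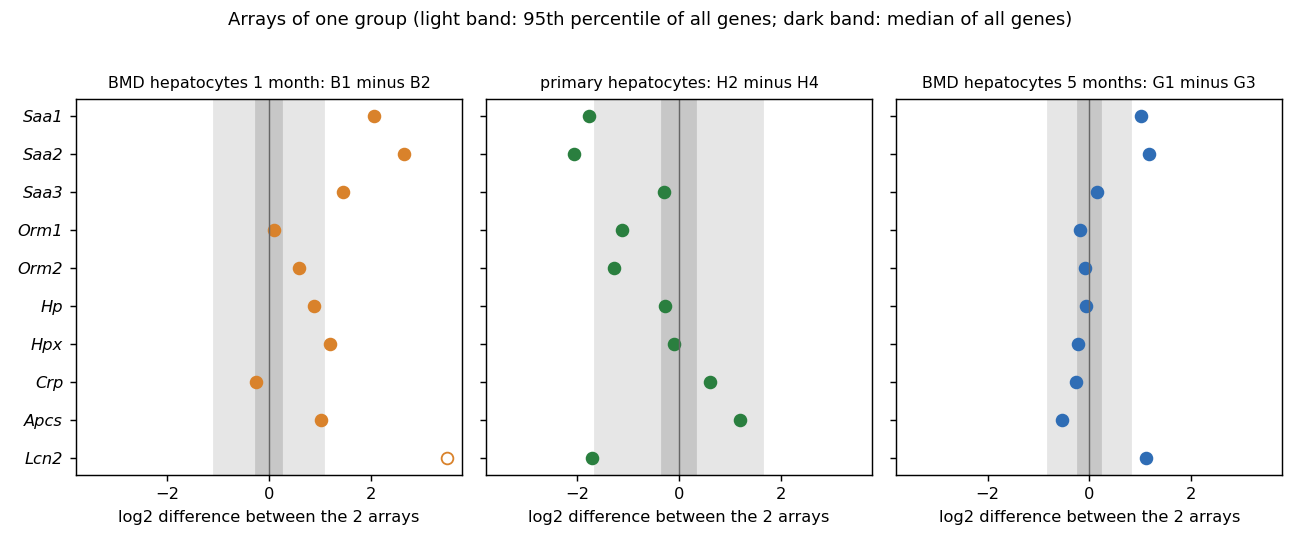
Log2 difference between the 2 arrays of each hepatocyte group (x axis) for the 10 genes. The dark band reaches to the median and the light band to the 95th percentile of the size of this difference over all genes, and the open point (Lcn2 at 1 month) was not well above background on both arrays. Saa1 and Saa2 lie outside the light band in all 3 groups, while Hp and Crp lie inside it.

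Markers were set beside these gaps. The 10 hepatocyte genes differed little between B1 and B2 (median -0.03, 5 higher on each array), and 9 of the 10 Kupffer cell genes measured on both were higher on B2 (median -2.42 for B1 minus B2), opposite to the Saa genes. In primary hepatocytes all 11 Kupffer cell genes were higher on H4 (median -1.13 for H2 minus H4), in the direction of the Saa genes, and 8 of 10 hepatocyte genes too (median -0.30). At 5 months the Kupffer cell genes had a median gap of -0.13 for G1 minus G3. Their part in these gaps was not tested.

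The other positive acute phase proteins were followed with a list of 20 genes, among them fibrinogen (Fga, Fgb, Fgg), complement C3, ceruloplasmin and hepcidin. At 1 month 18 of 20 were called higher than in Lin- BMCs and 0 lower, against 28.8% and 26.5% of all genes, with a median of 8.15 against 0.07. The largest rises among those well above background on all 4 arrays were 10.02 for Serpina3m, a serine protease inhibitor, 9.47 for Hamp2, a hepcidin gene, and 8.25 for Cp, the copper carrier ceruloplasmin (adjusted p = 6.37e-05, 3.95e-04 and 4.38e-04). Between B1 and B2, 15 of 20 were higher on B1 (median 0.63). The negative acute phase proteins, which fall in plasma during inflammation, had 8 of 8 genes called higher at 1 month, against the same 28.8%. Their median was 13.29, and the largest rises so measured were those of Ahsg (12.95) and Trf (8.76). On the Lin- BMC arrays 11 of the 20 positive and 2 and 3 of the 8 negative genes were well above background, so both counts and medians rest partly on genes tested only through their signal at 1 month. In the comparison of 5 months with primary hepatocytes, limma called 0 of 20 and 0 of 8. The median differences were 0.25 and 0.15.

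Of 20 genes for acute phase receptors and signalling, 6 were called higher and 3 lower at 1 month. For higher calls this is near the 28.8% of all genes, and for lower calls under the 26.5%. The rises included Il1rap, the accessory chain of the interleukin-1 receptor, by 7.89, Lifr, the receptor of leukemia inhibitory factor, by 6.64, and the transcription factor Cebpb by 2.76 (adjusted p = 2.72e-04, 7.85e-04 and 9.19e-03). Il6 itself, the main inducing cytokine, read -2.71 (B1) and -3.09 (B2) at 1 month against 1.43 (L3) and -0.31 (L4) in Lin- BMCs, and was called lower by -3.46 (adjusted p = 9.29e-03). Socs3, a feedback inhibitor that STAT3 induces, read 5.99 on B1 and 1.05 on B2, a wider gap than in 99.96% of genes there and in the direction of the Saa genes. It was not called at 1 month (adjusted p = 0.942) and was picked for this gap.

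Socs3 was the one gene called between 5 months and primary hepatocytes among the 17 of this list that were tested, where 0.552% of 19933 genes were called. It read 4.44 (G1), 4.45 (G3), 2.20 (H2) and 1.94 (H4), a difference of 2.37 (SE 0.21, adjusted p = 0.0444). The call was close to the threshold. In primary hepatocytes Socs3 was higher on H2 by 0.26, whereas Saa1 and Saa2 were higher on H4. Both 5-month arrays lay well above both primary hepatocyte arrays, with no gap between G1 and G3, where Saa1 and Saa2 had one. Saa3, Orm1, Orm2, Hp, Hpx and Lcn2 also had higher values on both 5-month arrays than on both primary hepatocyte arrays, without a call. Saa1, Saa2 and Crp overlapped between the groups, and Apcs went the other way. The share of all genes that separated in this manner is not given here, so nothing is read from the number of genes that did. The mean levels of all 11 Kupffer cell genes and all 8 leukocyte genes were higher at 5 months as well, also without a call. Their median differences were 0.95 and 0.78, against 0.04 for all genes tested. The share of all genes with a higher mean is not given here either, so nothing is read from these counts. The part of these cell types in the differences was not tested.

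The 5 shared probes allowed all 4 groups to be placed on one scale, with the percentile taken over the shared probes and slide confounded with group. All 5 genes were called higher than Lin- BMCs in primary hepatocytes, where 29.3% of 9229 genes were called higher, and in 5-month hepatocytes, where this share was also 29.3%. Both comparisons share the Lin- BMC arrays. Here again Orm1 and Apcs were not well above background on either Lin- BMC array, and Saa1 and Hpx were well above it on all 8 arrays. Saa1 was higher by 6.27 in primary hepatocytes (SE 0.82, adjusted p = 6.2e-04) and by 7.13 at 5 months (adjusted p = 3.64e-04), and Hpx by 12.78 (SE 0.38, adjusted p = 8.78e-07) and 13.31 (adjusted p = 7.44e-07). Orm1 was at least 519-fold higher in primary hepatocytes and at least 1352-fold at 5 months (adjusted p = 1.83e-05 and 1.11e-05). For Apcs these bounds were 318-fold and 95.8-fold (adjusted p = 1.21e-05 and 3.19e-05). Orm2, well above background on L3 only, had log2 differences of 10.48 and 11.97 (adjusted p = 9.78e-05 and 6.06e-05), which were 9.03 and 10.52 with L3 alone and 6.72 and 8.18 with normexp. The Hpx differences were 10.47 and 10.98 with normexp.

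**Figure D5:**
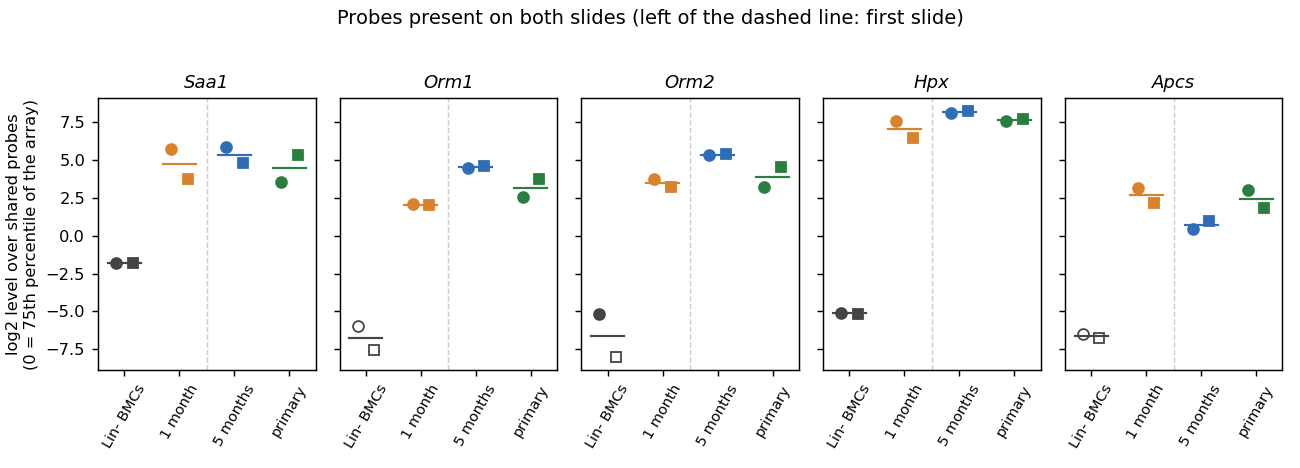
Level of the 5 genes with a probe common to both designs on all 8 arrays (y axis, log2, 0 is the 75th percentile over the shared probes), by group, with a circle and a square for the 2 arrays, horizontal lines at their mean and open points for arrays not well above background. The dashed line divides the slides. Lin- BMCs are lowest for all 5 genes, Orm1 is lowest of the hepatocyte groups at 1 month (2.09 and 2.04), and Apcs is lowest of them at 5 months (0.46 and 0.96).

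Among the hepatocyte groups the order was not the same for all genes. Orm1 read 2.09 (B1) and 2.04 (B2) at 1 month, 2.57 (H2) and 3.73 (H4) in primary hepatocytes and 4.46 (G1) and 4.60 (G3) at 5 months. Orm2 read 3.77 and 3.24 at 1 month, 3.22 and 4.54 in primary hepatocytes and 5.35 and 5.40 at 5 months, so the first 2 groups overlapped. Hpx read 7.62 and 6.47 at 1 month, 7.58 and 7.72 in primary hepatocytes and 8.10 and 8.27 at 5 months, and again the first 2 overlapped. Apcs ran differently, with 3.17 and 2.20 at 1 month and 3.02 and 1.86 in primary hepatocytes, which overlapped, and 0.46 and 0.96 at 5 months. Saa1 read 5.75 and 3.75 at 1 month, 3.56 and 5.37 in primary hepatocytes and 5.86 and 4.81 at 5 months, and its 3 groups overlapped.

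Between 1 month and primary hepatocytes 0 of the 5 were called by limma, where 16.7% of 9229 genes were called in either direction, and 0 had an unadjusted p under 0.05. The differences were 0.29 for Saa1 (95% confidence interval -1.68 to 2.26), -1.08 for Orm1 (-2.49 to 0.32), -0.37 for Orm2 (-2.55 to 1.82), -0.61 for Hpx (-1.51 to 0.30) and 0.25 for Apcs (-0.92 to 1.41). These intervals do not show that the groups are alike. With normexp background correction 1 of the 5, Orm1, was called at -1.01. Over all genes normexp called 1864 higher and 571 lower, against 1074 and 470 without it.

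From 1 month to 5 months 2 of the 5 were called, where 17.1% of 9229 genes were called in either direction. Orm1 was higher at 5 months by 2.46 (5.52-fold, SE 0.59, adjusted p = 0.0359), and Apcs was lower by -1.98 (SE 0.49, adjusted p = 0.0388). Hpx (1.14, adjusted p = 0.0828), Orm2 (1.87, adjusted p = 0.198) and Saa1 (0.58, adjusted p = 0.653) were not called. Both calls were close to the threshold. That of Orm1 was lost with the methods' t-test after adjustment and without any 1 of B1, B2, G1 and G3 (2.39 to 2.54), and that of Apcs without any 1 of L3, L4, B1, B2, G1 and G3 (-2.46 to -1.49), with the percentile over all probes with the authors' table (-1.75 in both) or with the methods' t-test, adjusted or not. Slide and time cannot be told apart in this comparison. The scale itself shifted between slides. The median difference of all genes was 0.18 for 1 month minus primary hepatocytes and -0.14 for 5 months minus 1 month, and with the percentile over all probes of each design it was -0.09 and 0.08.

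The genes whose levels were most alike that of Saa1 over the 6 hepatocyte arrays were sought among 6863 genes with a shared probe well above background on all 6. They were Nfx1 (Pearson's r = 0.988, Spearman's rho = 1.00), Exosc6 (r = 0.970), Fnip2 (r = 0.969), Tubgcp6 (r = 0.960) and Ap1g2 (r = 0.956). Their own levels varied with an SD of 0.0997 to 0.417. The other acute phase genes with a shared probe were not among them. Orm2 was ranked 356 (r = 0.650), Hpx 535 (r = 0.580), Orm1 1001 (r = 0.441) and Apcs 5652 (r = -0.379). These are descriptions over 6 arrays on 2 slides, which share slide and group. Saa2 and Lcn2 had no shared probe.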

How the data were processed

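The authors extracted one-colour scans with Agilent Feature Extraction 11.5.1.1, and the deposited files give the background-subtracted intensity of each spot. A deposited value table holds log2 values that the authors shifted to the 75th percentile in GeneSpring GX. On each array it differed from log2 of the intensities by 1 constant, within 0.02 for at least 99.8% of probes. Control spots and outlier spots (6 to 152 an array) were left out. The 75th percentile was subtracted over all probes within a slide and over the shared probes across slides. A probe entered a fit if any of the groups had it well above background in duplicate, and the brightest probe of a gene was used. Groups were compared with limma 3.58.1 in R 4.3.3, adjusting p-values across every tested gene by Benjamini-Hochberg, on 4 arrays within a slide and on all 8 across slides. The log2 limit of 0.6 follows the methods. Replicates are separate pools by the legend, and their number limits the precision. Scripts were tested on simulated data.

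The 10 genes and all gene lists were chosen with earlier results of these data known. Named from each list were at most the 3 largest rises and falls among called genes that each array compared had measured above background, and for likeness the top 5 by Pearson's r. Socs3 at 1 month and the granule genes of the gap between L3 and L4 were named after their values were seen. Alternatives were normexp (offset 50), quantile normalization, no filter, a filter on all arrays, the mean of probes, the authors' table, the methods' t-test, the percentile over all probes, the shared probes within slides, and each array left out. Slide could not be fitted as a block, since each comparison lay within 1 slide or coincided with it. Figures were drawn with matplotlib 3.10.9 in Python 3.11.15.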

Additional observations from a re-analysis of the deposited data

How the results depend on the processing

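Of the 9 genes called between 1 month and Lin- BMCs, 9 were called with each array left out and under every other setting except 3. The count was 3 with a filter on all arrays, which leaves only 3 of the genes to test, 5 with the methods' t-test after adjustment, and 5 with the shared probes in the fit of all 8 arrays, where only 5 have a probe. Lcn2 ranged from -3.15 to 1.68 with each array left out. For 5 months against primary hepatocytes 0 to 3 genes were called with each array left out, 3 without H4 and 0 without the others, and 1 by the methods' t-test without adjustment. Left-out arrays gave ranges of -0.060 to 1.71 for Saa1 and -0.24 to 0.37 for Crp. Against Lin- BMCs across slides, the 5 calls fell to 2 in both hepatocyte groups with the filter on all arrays, again for want of genes to test, and to 3 in primary hepatocytes with the adjusted t-test; with each array left out there were 5 in each. Between 1 month and primary hepatocytes 1 was called with normexp and 0 with each array left out. There Saa1 was -0.020 with normexp, and Apcs -0.029 with the authors' table and -0.023 with the percentile over all probes. With arrays left out, Saa1 ranged from -0.71 to 1.29, Orm2 from -1.03 to 0.29 and Apcs from -0.33 to 0.82. Between 5 months and 1 month, where 2 were called, 4 were called with normexp, 1 with the authors' table, 1 with the percentile over all probes, 0 with the filter on all arrays and 0 with the adjusted t-test, and 0 to 2 with each array left out, over which Saa1 ranged from -0.42 to 1.58. Apart from effects of fewer genes or arrays, the cause was not tested. Over all genes, normexp raised the share of higher calls at 1 month against Lin- BMCs from 52.1% to 62.8%. Against primary hepatocytes this share was 69.6%, with 50.1% by the percentile over all probes, 49.6% by the authors' table and 53.2% by quantile normalization. For 5 months against 1 month it was 33.9%, with 52.5%, 53.1% and 46.8%. No paired analysis was possible because the groups compared share fewer than 2 replicate numbers. Weak signals, above all in Lin- BMCs and on B2 for Lcn2, are limited by their distance from background.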

Other observations

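The remaining marker lists were counted between 1 month and Lin- BMCs, and all of the values below are from limma within that slide, where 28.8% of all genes were called higher and 26.5% lower. Of 10 hepatocyte genes 10 were called higher, with Pck1 up by 12.47, Tat by 11.38 and Asgr1 by 10.52 on the log2 scale, and of 8 leukocyte genes 8 were called lower, among them Coro1a (-8.07), Ptprc (-7.40) and Cd52 (-6.31). Of 11 Kupffer cell genes 5 were called higher and 1 lower, with Marco up by 2.51 and C1qb by 1.84. Of 10 sinusoidal endothelial and stellate genes 8 were called higher and 1 lower, including Clec4g (7.77), Kdr (5.53) and Colec11 (5.41). Between 5 months and primary hepatocytes, 0 genes of each of these 4 lists were called. There 11 of 11 Kupffer cell genes and 8 of 8 leukocyte genes had higher values at 5 months. The median differences were 0.95 and 0.78, against 0.04 for all genes tested. The share of all genes with higher values is not given here.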
